A study of Mus musculus with 6 samples.

Results

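The genes that encode the NF-κB subunits and their inhibitors were examined in 6 lists of ChIP-seq peaks from mouse bone marrow-derived macrophages (BMDMs). A peak was taken when the deposited lists named 1 of 10 genes as its nearest gene: the subunit genes Nfkb1, Nfkb2, Rel, Rela and Relb, and the inhibitor genes Nfkbia, Nfkbie, Nfkbiz, Bcl3 and Tnfaip3. The rule took 270 of 134964 peaks. Where peaks of different lists overlapped they were merged, which gave 105 regions of 60856, and the 10 genes were among 14930 genes named in the lists. All 10 genes had a peak in at least 2 of the 6 lists.

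The binding of C/EBPα, IRF8 and JUNB was mapped in wild type BMDMs without IL-4 (control) and after IL-4 treatment, to ask whether these lineage-determining factors move early in alternative polarization. Per the labels, all 6 samples came from bone marrow of 8 to 12 week-old mice. The mice were on the C57BL/6 background. Differentiation took 6 days in L929 supernatant, the source of MCSF, and the IL-4 groups then received 20 ng/ml for 1 h. DSG and formaldehyde served as cross-linkers. There was 1 sample for each factor and condition, so no value below has a replicate, no test of IL-4 was possible, and every difference between the control and IL-4 lists is a difference between 2 samples. The labels name 2 library kits without saying which kit served which sample, and the number of reads behind each list is unknown, so effects of IL-4, kit and depth cannot be told apart. More cells bound at a site and more binding per cell cannot be told apart either.

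NF-κB is a family of dimeric transcription factors that carries signals from Toll-like and cytokine receptors to inflammatory genes. RelA, c-Rel and RelB (the products of Rela, Rel and Relb) hold the activation domains, while Nfkb1 and Nfkb2 encode precursors that are processed to the DNA-binding subunits p50 and p52. In resting cells the dimers are held in the cytoplasm by IκB proteins such as IκBα (Nfkbia) and IκBε (Nfkbie), which are destroyed on signalling and then made again because their genes are NF-κB targets. IκBζ (Nfkbiz) and Bcl-3 are nuclear members of the IκB family that bind p50 and p52 and can raise or lower the output of target genes, and A20 (Tnfaip3) is a ubiquitin-editing enzyme that shuts off the signal upstream of the IκB kinase. C/EBPα and IRF8 establish macrophage enhancers, and JUNB is a subunit of AP-1.

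The sequences below carry the binding described in the following paragraphs. Each is the central 200 bp of a merged region on mm10 (read from GRCm38), plus strand, 5′ to 3′. Capitals mark matches on either strand, overlapping ones included, to any of 5 sets of letters: TGACTCA (AP-1), TTGCNNAA (C/EBP), GNAANNGAAA (IRF with ETS), GGGNNNTNCC (κB) and TTCNNNNGAA (STAT6). The first 5 are the highest-scoring regions of Nfkbiz, Nfkb1, Rel, Tnfaip3 and Nfkbia, in that order.
Nfkbiz, chr16:55698598-55698797: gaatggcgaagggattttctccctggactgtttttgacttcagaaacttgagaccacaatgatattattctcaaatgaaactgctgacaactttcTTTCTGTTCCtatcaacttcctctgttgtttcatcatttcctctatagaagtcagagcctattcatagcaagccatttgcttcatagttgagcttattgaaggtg
Nfkb1, chr3:135608204-135608403: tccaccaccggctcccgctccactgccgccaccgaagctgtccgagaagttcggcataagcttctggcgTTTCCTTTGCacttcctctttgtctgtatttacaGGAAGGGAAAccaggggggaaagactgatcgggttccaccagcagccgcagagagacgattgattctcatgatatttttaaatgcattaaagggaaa
Rel, chr11:23805835-23806034: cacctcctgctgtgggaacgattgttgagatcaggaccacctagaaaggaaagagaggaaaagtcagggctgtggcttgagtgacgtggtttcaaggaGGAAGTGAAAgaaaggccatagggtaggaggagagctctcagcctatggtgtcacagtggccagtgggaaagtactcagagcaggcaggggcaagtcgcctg
Tnfaip3, chr10:19053627-19053826: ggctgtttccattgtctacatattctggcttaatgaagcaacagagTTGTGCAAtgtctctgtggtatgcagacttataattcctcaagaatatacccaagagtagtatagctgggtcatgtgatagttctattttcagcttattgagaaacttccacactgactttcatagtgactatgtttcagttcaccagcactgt
Nfkbia, chr12:55488762-55488961: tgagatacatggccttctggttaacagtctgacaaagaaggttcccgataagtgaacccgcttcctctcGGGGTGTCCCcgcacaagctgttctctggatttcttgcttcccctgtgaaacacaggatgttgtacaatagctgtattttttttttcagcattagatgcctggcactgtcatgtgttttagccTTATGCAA

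The highest Nfkbiz, Nfkb1 and Rel regions held matches to the IRF letters (1, 2 and 1), and these were the regions where IRF8 scored highest at each of those genes. The Tnfaip3 region held 1 C/EBP match and the Nfkbia region 1 C/EBP and 1 κB match. A match to letters is a description of the sequence and not evidence of a site in use.

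A further 3 regions are printed because the factors differed there between the control and IL-4 lists. They were chosen after their values were seen.
Nfkbiz far region, chr16:55555281-55555480: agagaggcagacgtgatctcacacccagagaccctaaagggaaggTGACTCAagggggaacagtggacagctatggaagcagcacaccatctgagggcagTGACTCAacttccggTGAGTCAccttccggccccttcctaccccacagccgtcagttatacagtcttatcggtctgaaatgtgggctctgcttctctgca
Rel intron 3, chr11:23754317-23754516: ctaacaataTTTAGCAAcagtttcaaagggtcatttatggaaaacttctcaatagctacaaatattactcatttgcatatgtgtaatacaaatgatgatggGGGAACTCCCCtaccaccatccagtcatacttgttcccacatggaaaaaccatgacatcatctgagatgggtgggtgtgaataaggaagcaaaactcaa
Nfkb1 intron 1, chr3:135689034-135689233: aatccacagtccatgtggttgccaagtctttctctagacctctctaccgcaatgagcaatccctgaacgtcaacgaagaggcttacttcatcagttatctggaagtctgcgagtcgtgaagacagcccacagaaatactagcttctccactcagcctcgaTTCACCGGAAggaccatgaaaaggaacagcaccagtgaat

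The far Nfkbiz region held 3 AP-1 matches, the most of any of the 105 member windows. The Rel intron 3 region held 2 overlapping κB matches, which read as a single run of capitals, and 1 C/EBP match. The Nfkb1 intron 1 region held 1 match to the STAT6 letters and none to the other 4 sets.

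Promoter sequences were taken from RefSeq (GRCm38.p6), as windows that run from upstream of the annotated start to a short way past it, on the gene's strand. Of the 10 genes, 7 matched the table with 10 promoters in all. The κB letters were found in 9 of these 10 promoters and in 6 of the 7 genes, compared with 17.4% of 32851 promoters of all genes. The exception was Rela. The 10 include alternative promoters of Nfkb2, some of which overlap, and of Tnfaip3, so they are not independent. The 17.4% counts promoters and not genes, and the comparison was not tested. The promoters of Tnfaip3, Nfkbie and Nfkb2 overlapped peaks in 4, 3 and 1 of the lists and are printed with κB matches alone in capitals.
Tnfaip3, chr10:19015361-19015660, minus strand: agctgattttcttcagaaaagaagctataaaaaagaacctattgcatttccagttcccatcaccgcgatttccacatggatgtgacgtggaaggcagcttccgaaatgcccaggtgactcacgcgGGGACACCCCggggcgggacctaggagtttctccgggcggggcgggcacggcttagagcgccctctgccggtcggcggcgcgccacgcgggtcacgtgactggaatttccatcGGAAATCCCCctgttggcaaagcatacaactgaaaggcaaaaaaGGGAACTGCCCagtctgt
Nfkbie, chr17:45555450-45555749, plus strand: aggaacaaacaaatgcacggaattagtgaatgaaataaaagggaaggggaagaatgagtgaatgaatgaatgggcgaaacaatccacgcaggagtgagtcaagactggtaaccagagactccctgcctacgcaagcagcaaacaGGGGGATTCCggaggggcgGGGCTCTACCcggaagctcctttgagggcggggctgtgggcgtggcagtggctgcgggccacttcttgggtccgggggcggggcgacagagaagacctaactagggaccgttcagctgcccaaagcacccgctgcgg
Nfkb2, chr19:46304487-46304786, plus strand: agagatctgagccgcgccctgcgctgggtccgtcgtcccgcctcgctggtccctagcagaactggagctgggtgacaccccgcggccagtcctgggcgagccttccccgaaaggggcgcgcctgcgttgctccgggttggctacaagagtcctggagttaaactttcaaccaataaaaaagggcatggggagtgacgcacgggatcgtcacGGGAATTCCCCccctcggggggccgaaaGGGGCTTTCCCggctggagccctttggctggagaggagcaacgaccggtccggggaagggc

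The Tnfaip3 and Nfkb2 promoters printed held 4 κB matches each, some of them overlapping, and the Nfkbie promoter held 2. None of the 10 promoters held a match to the C/EBP or IRF letters, which 10.8% and 7.91% of all promoters held. At these shares 10 promoters, some of them overlapping, are too few to set the genes apart. C/EBPα and IRF8 peaks lay on some of the 10.

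IRF8 had the most peaks at these genes, with 77 in the control list (of 37525) and 71 in the IL-4 list (of 42076). C/EBPα had 54 (of 24486) and 56 (of 24612), and JUNB had 8 (of 3940) and 4 (of 2325). The order of the factors was the same in both conditions and was that of the whole lists. The difference between conditions depended on the selection for all 3 factors. For C/EBPα and IRF8 the direction turned with a limit on the score, and for JUNB the difference was absent at equal list lengths. Among peaks of a score of at least 5, C/EBPα had 49 and 47, IRF8 had 62 and 63, and JUNB had 6 and 3. When the longer list of each factor was cut to the length of the shorter by score, JUNB had 4 member peaks in either list and IRF8 had 77 and 68.

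The peaks were spread unevenly over the genes. Summed over the 6 lists, Nfkbiz had 78 peaks in 28 regions, Tnfaip3 54 in 21, Nfkb1 43 in 17 and Rel 32 in 13. Nfkbia had 22 peaks in 8 regions, Bcl3 15 in 5, Rela 12 in 6, Nfkbie 7 in 3, Nfkb2 5 in 3 and Relb 2 in 1. The median was 18.5 peaks and 7 regions per gene, against 5 peaks and 2 regions over all genes named in the lists. Nfkbiz, Tnfaip3, Nfkb1 and Rel, the 4 genes with the most peaks, each exceeded the 90th percentile of 22 peaks, while Relb and Nfkb2 were at or below the median of all genes.

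**Figure D1:**
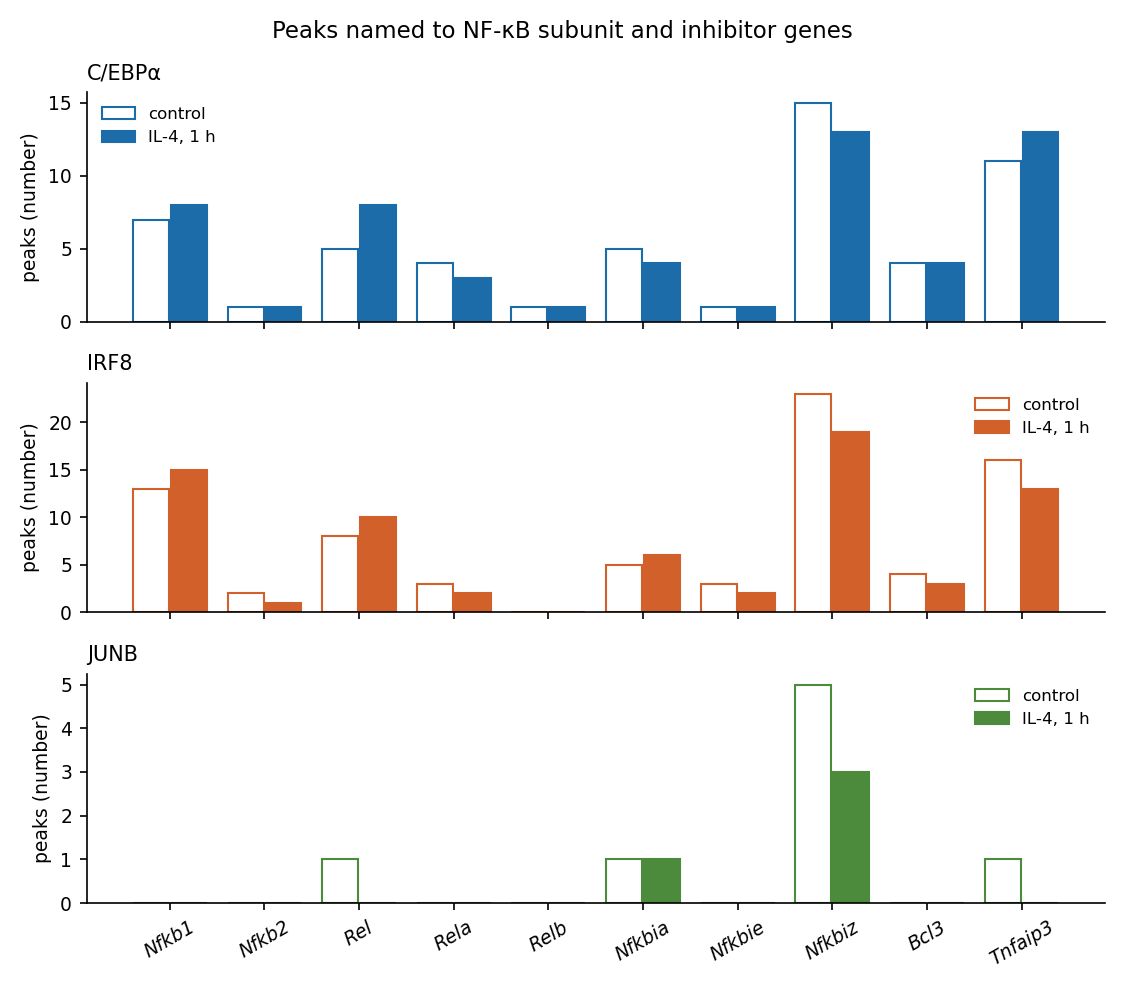
Number of peaks named to each of the 10 genes (x axis, subunits then inhibitors) in the control list (open bars) and the IL-4 list (filled bars) of C/EBPα, IRF8 and JUNB, 1 sample per bar. Nfkbiz has the tallest bars (C/EBPα 15 and 13, IRF8 23 and 19, JUNB 5 and 3), level with Tnfaip3 in the C/EBPα IL-4 list (13), and JUNB has no bar at 6 of the genes.

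Most member peaks lay away from promoters. In the control lists, 8 of 54 C/EBPα peaks (14.8%, Wilson 95% interval 7.70% to 26.6%) and 7 of 77 IRF8 peaks (9.09%, 4.47% to 17.6%) were annotated to a promoter, compared with 6.88% and 7.25% of all peaks in those lists. After IL-4 the promoter peaks numbered 4 of 56 for C/EBPα (7.14%, 2.81% to 17.0%) and 8 of 71 for IRF8 (11.3%, 5.82% to 20.7%), compared with 7.35% and 9.16% of all peaks. No JUNB peak was at a promoter, out of 8 and 4 (Wilson upper limits 32.4% and 49.0%). These intervals, like those below, cover counting error alone and treat peaks as independent, although several peaks share a gene.

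The position of the regions differed from gene to gene. All 14 regions inside Nfkb1 were intronic, and the other 3 were upstream of it. At Nfkbiz, 25 of 28 regions lay downstream of the transcription start site (TSS), 21 were intergenic and 13 were more than 100000 bp from the TSS, the farthest at 266798 bp. These Nfkbiz regions were the sole member regions past that distance. Tnfaip3 had 19 intergenic regions of 21, on both sides of the gene. At Nfkbia, 6 of 8 regions were annotated to introns of a neighbouring non-coding transcript that runs downstream of the gene.

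For C/EBPα, 45 of the 54 control peaks overlapped an IL-4 peak (83.3%, 71.3% to 91.0%), against 78.6% of all C/EBPα control peaks. The 9 control-only peaks (16.7%) compare with a background of 21.4%, and the 13 IL-4-only peaks (23.2%, 14.1% to 35.8%) with 22.0%. The member shares were thus near the background in both directions. The control-only peaks had a median score of 5.66 and the IL-4-only peaks 5.94, far below the medians of 14.6 and 18.48 for the overlapping ones.

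For IRF8, 57 of the 77 control peaks overlapped an IL-4 peak (74.0%, 63.3% to 82.5%), against 78.6% of all. There were 20 control-only peaks (26.0%, background 21.4%) and 15 IL-4-only peaks (21.1%, 13.2% to 32.0%, background 30.4%). The background of control-only peaks lay within the interval of the member share and so did that of IL-4-only peaks. Of the 20 control-only IRF8 peaks, 16 were intergenic, with a median score of 5.2. Of all 77 member control peaks of IRF8, 43 were intergenic (55.8%), against 43.0% of the whole control list. The intergenic share of all control-only IRF8 peaks was not computed, so the 16 are a description alone.

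For JUNB, 3 of 8 control peaks overlapped an IL-4 peak (37.5%, 13.7% to 69.4%), and 5 were control-only (62.5%, background 64.2%). Of the 4 IL-4 peaks, 1 was IL-4-only (25%, 4.56% to 69.9%, background 39.2%). Both backgrounds lay inside the intervals of the member shares, which are wide at these numbers.

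Scores of overlapping peaks were compared after one-to-one pairing. Peak Score, whose unit is not stated, ranged from 1.3 to 322.61 over the 6 lists, and can depend on depth. Over 43 C/EBPα pairs the median log2 ratio of IL-4 to control was 0.01 (all C/EBPα pairs, -0.00), and it was higher after IL-4 in 22 and lower in 21. Over 56 IRF8 pairs the median was 0.09 (all, 0.08), with 32 higher and 24 lower. The 3 JUNB pairs, all at Nfkbiz, were all lower after IL-4, with a median of -0.53 (all JUNB pairs, -0.54).

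Among the C/EBPα member pairs, a 2-fold or greater difference was reached upwards by 6 of 43 pairs (14.0%, 6.56% to 27.3%, background 7.72%) and downwards by 7 (16.3%, 8.12% to 29.97%, background 6.56%). For IRF8, 10 of 56 pairs were at least 2-fold higher (17.9%, 10% to 29.8%, background 11.3%) and 3 at least 2-fold lower (5.36%, 1.84% to 14.6%, background 7.96%). No JUNB pair was 2-fold higher (background 2.99%) and 1 of 3 was 2-fold lower (background 29.9%). Of these, the background of the C/EBPα decreases alone lay outside the interval of the member share. With pairs of a score of at least 5 that share was 10.5% (4.17% to 24.1%). The background under that limit was not computed, so whether the excess remains there is unknown. At a limit of 1.5-fold, 9 of 43 C/EBPα pairs were past it in each direction (20.9%), against backgrounds of 17.7% upwards and 17.8% downwards.

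**Figure D2:**
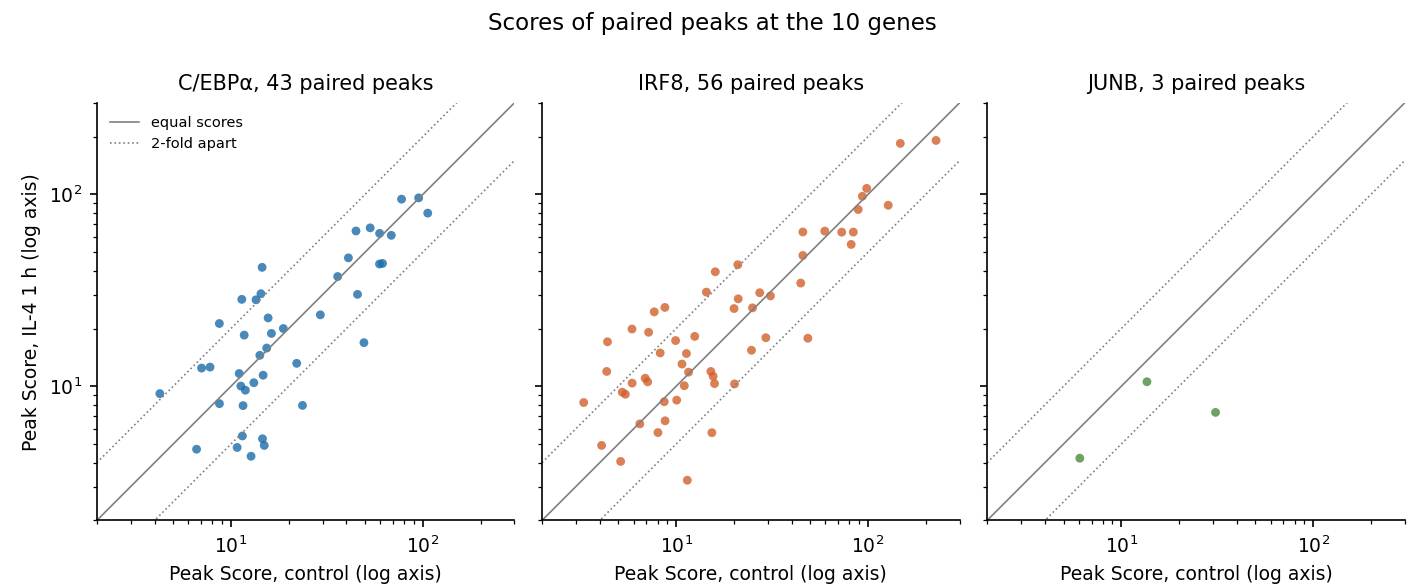
Peak Score in the control list (x axis, log scale) against the IL-4 list (y axis, log scale) for each paired peak at the 10 genes, in a panel per factor (43 C/EBPα, 56 IRF8 and 3 JUNB pairs, 1 sample per condition). The solid line marks equal scores and the dotted lines a 2-fold difference; C/EBPα points past the dotted lines number 6 above and 7 below, IRF8 points 10 and 3, and JUNB points 0 and 1.

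Among the subunit genes, Nfkb1 (GENCODE, chr3:135584655-135691547, minus strand) had the highest single score. Its intron 12 region (chr3:135608075-135608531, 83.2 kb from the TSS) had an IRF8 peak of 147.31 in control and 184.41 after IL-4, and no C/EBPα or JUNB peak in any list. IRF8 was therefore alone at the strongest Nfkb1 region, which held 2 IRF matches in the sequence above. Over the locus, IRF8 had peaks in 16 of 17 regions and C/EBPα in 8, with no JUNB peak.

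Nfkb1 also had the highest IL-4-only peaks of C/EBPα and of IRF8 among the 10 genes. In intron 1 (chr3:135688951-135689316, 2.41 kb from the TSS) C/EBPα scored 35.91 and IRF8 12.28 after IL-4, and neither had a peak there in control. That window, printed above, held the match to the STAT6 letters. An IRF8 peak of 10.13 at 8.03 kb was also in the IL-4 list alone. In the same intron, 851 bp from the TSS, the IRF8 score was 4.39 in control and 17.06 after IL-4, the largest IRF8 increase of any member pair (log2 ratio 1.96).

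Elsewhere in Nfkb1 the scores went both ways. In intron 5 the C/EBPα score was 11.39 and 28.38 (log2 ratio 1.32), while in intron 6 it was 23.59 and 7.95 (-1.57) and in intron 17 it was 14.60 and 5.33 (-1.45). IRF8 did not follow C/EBPα at the intron 6 region, where it scored 27.27 and 30.73. In intron 8, where IRF8 was alone, it scored 15.36 in control and 5.73 after IL-4 (-1.42). Over the gene, IRF8 had 13 peaks in control and 15 after IL-4, of which 1 was control-only and 4 were IL-4-only. Over all IRF8 peaks, 21.4% of control peaks were control-only and 30.4% of IL-4 peaks IL-4-only. The counts at Nfkb1 are too few to set the locus apart.

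At Rel (chr11:23736847-23770970, minus strand), the gene of c-Rel, every C/EBPα pair scored higher after IL-4 (5 of 5, log2 ratios from 0.08 to 1.10). None of the 5 C/EBPα control peaks was control-only (background 21.4%), a number too small to set the locus apart. C/EBPα had 5 peaks in control and 8 after IL-4. The pairs at least 2-fold apart lay in intron 1, with scores of 14.33 and 30.37 at 2.96 kb from the TSS and of 4.26 and 9.16 at 8.08 kb. Over all C/EBPα pairs, 49.7% were higher after IL-4; the Rel pairs share 1 locus and were singled out after their values were seen.

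The strongest Rel regions were bound by IRF8 upstream of the gene. At chr11:23805689-23806180 (35.0 kb upstream) IRF8 scored 98.42 in control and 107.45 after IL-4, with no C/EBPα or JUNB peak in any list. At 52.6 kb upstream it scored 88.89 and 83.40, and there C/EBPα had a peak of 10.38 in the IL-4 list alone. IRF8 also had an IL-4-only peak of 10.84 at 29.9 kb upstream. Weaker sites nearby differed more, with IRF8 scores of 8.74 and 25.76 at 50.3 kb upstream (log2 ratio 1.56) and of 11.44 and 3.24 at 59.4 kb upstream (-1.82), the largest IRF8 decrease of any member pair.

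The Rel intron 3 region with the 2 overlapping κB matches (chr11:23754157-23754676, 16.5 kb from the TSS) was the sole subunit region with JUNB. JUNB scored 12.50 in control and had no IL-4 peak, whereas C/EBPα scored 7.78 and 12.59 and IRF8 14.38 and 30.96. The JUNB peak was thus absent from the list in which both other factors scored higher.

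**Figure D3:**
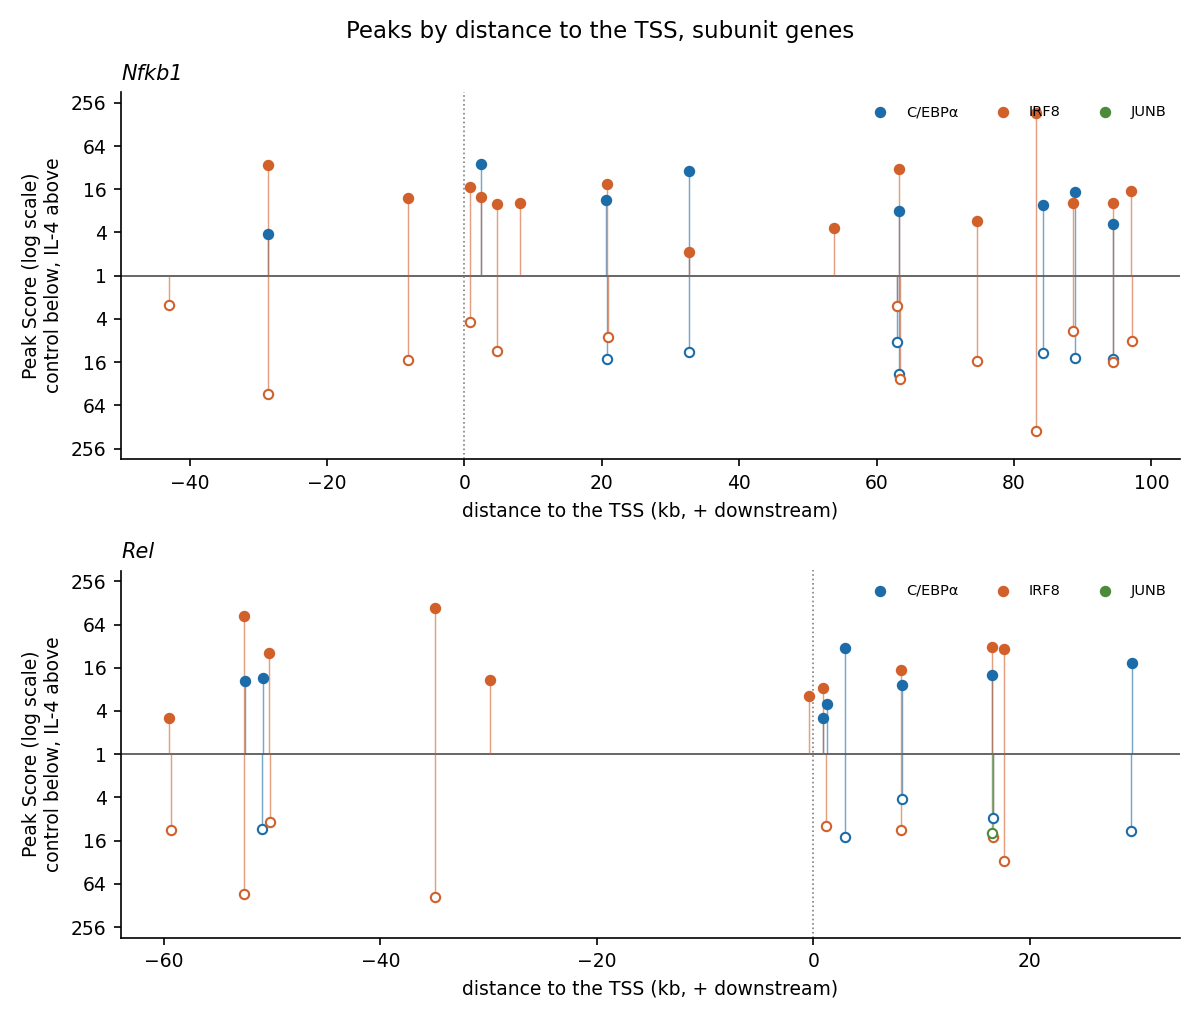
Peaks at Nfkb1 and Rel by distance to the TSS (x axis, kb, positive values downstream), with Peak Score on a log scale upwards for the IL-4 list (filled points) and downwards for the control list (open points), coloured by factor. The tallest stems are IRF8 alone at 83.2 kb in Nfkb1 (147.31 and 184.41) and 35.0 kb upstream of Rel (98.42 and 107.45).

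Rela (chr19:5637483-5648130), Relb (chr7:19606217-19629438) and Nfkb2 (chr19:46304320-46312385) were more sparsely occupied. The strongest Rela region was annotated to the transcript end and lay just downstream of the gene (chr19:5648567-5649127), where C/EBPα scored 44.83 and 64.45 and IRF8 had a peak of 6.45 in control alone. At the Rela promoter region 733 bp upstream of the TSS, the factors differed in direction. C/EBPα scored 11.47 in control and 5.51 after IL-4 (log2 ratio -1.06), while IRF8 scored 7.69 and 24.43 (1.67). A second downstream C/EBPα peak, 12.2 kb from the TSS, scored 14.91 and 4.92 (-1.60), the largest C/EBPα decrease of any member pair.

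Relb had a single region (chr7:19631110-19631330, 1.78 kb upstream), with C/EBPα scores of 7.03 and 12.44 and no IRF8 or JUNB peak. At Nfkb2 (chr19:46303884-46304471, 513 bp upstream) C/EBPα had a peak of 4.53 in control alone and IRF8 scored 3.30 and 8.23. In the Nfkb2 promoter printed above, IRF8 had a peak of 3.30 in control alone. These are among the lowest scores of the member promoters. The nearest-gene rule left many peaks in the neighbourhood of Relb to other genes. Within 50000 bp of it, 16 of 18 peaks were named to other genes, compared with 6 of 49 at Nfkb1 and 0 of 40 at Tnfaip3.

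Among the inhibitor genes, Nfkbiz (chr16:55811375-55838899, minus strand) held the strongest and the most complex set of regions. The highest score of any member peak was the IRF8 peak at chr16:55698419-55698976, 123 kb downstream of the TSS, with 226.11 in control and 191.00 after IL-4. C/EBPα scored 59.52 and 62.62 there and JUNB 6.08 and 4.22, so the region had a peak in all 6 lists. The region 67.5 kb downstream (chr16:55754318-55754890) was likewise in all 6 lists, with C/EBPα at 53.15 and 66.92, IRF8 at 93.43 and 97.73 and JUNB at 13.61 and 10.56. Together they were the 2 member regions of 105 (1.90%) in all 6 lists, against 1.63% of all regions.

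At 2 other Nfkbiz regions, JUNB was in the control list alone beside strong peaks of the other factors. At 199 kb downstream (chr16:55623273-55623868) C/EBPα had its highest member score, 106.01 in control and 79.85 after IL-4, IRF8 scored 81.67 and 54.85, and JUNB 6.73 in control. At 74.8 kb downstream, IRF8 scored 127.44 and 87.76, C/EBPα 11.26 and 10.03, and JUNB 3.24 in control. Both of the other factors were lower after IL-4 at either region, by less than 2-fold.

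The far Nfkbiz region with 3 AP-1 matches (chr16:55555201-55555560, 267 kb downstream) went the other way. JUNB scored 30.99 in control, its highest member score, and 7.31 after IL-4 (log2 ratio -2.08). IRF8 scored 5.89 and 19.88 (1.75), and C/EBPα had no control peak and scored 11.09 after IL-4. At this distance the nearest-gene name does not show that the region acts on Nfkbiz.

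Closer to Nfkbiz, several pairs were lower after IL-4. At 31.6 kb downstream the C/EBPα score was 49.30 in control and 16.88 after IL-4 (log2 ratio -1.55), and IRF8 had a peak of 4.96 in control alone. At 88.1 kb it was 12.73 and 4.32 (-1.56), and IRF8 again had a control peak alone (4.70). At 23.1 kb, IRF8 scored 48.57 and 17.80 (-1.45) and C/EBPα 45.65 and 30.14. Against these, IRF8 scored 45.75 and 63.71 at 24.8 kb upstream. Farther out it scored 4.35 and 11.95 at 205 kb (1.46) and 20.97 and 43.02 at 185 kb (1.04). Over the locus, 8 IRF8 pairs were higher after IL-4 and 7 lower, and 5 C/EBPα pairs were higher and 7 lower.

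At the Nfkbiz promoter 617 bp upstream of the TSS, C/EBPα scored 13.97 in control and had no IL-4 peak, the highest control-only C/EBPα score among the 10 genes, while IRF8 scored 5.44 and 9.09. At a second annotated start of the gene C/EBPα scored 8.71 and 8.12, and IRF8 had a peak of 4.69 after IL-4 alone. Over the locus, 8 of 23 IRF8 control peaks were control-only, against 21.4% of all IRF8 control peaks, a comparison that was not tested. Of the 8, 6 were more than 100000 bp from the TSS, and the highest was 11.82 at 190 kb downstream. The next highest control-only C/EBPα peak was also at Nfkbiz, with 10.71 at 134 kb downstream, beside a control-only IRF8 peak of 3.52.

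Tnfaip3 (chr10:19000910-19015657, minus strand), the gene of A20, had higher scores of both C/EBPα and IRF8 at its promoter after IL-4. At chr10:19015221-19015766, which covers the promoter printed above, C/EBPα scored 14.53 in control and 41.66 after IL-4 and IRF8 16.00 and 39.53. The log2 ratios were 1.52 and 1.305, and the C/EBPα value was the largest of any C/EBPα member pair. The IRF8 ratio was larger at the promoters of Rela (1.67) and Nfkb2 (1.32). JUNB had no peak there in either list.

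The other strong Tnfaip3 regions differed less. The highest was 38.3 kb upstream (chr10:19053467-19053985), with C/EBPα at 95.08 and 95.91 and IRF8 at 59.54 and 64.35. In intron 1, 2.58 kb from the TSS, C/EBPα scored 59.43 and 43.36 and IRF8 83.82 and 63.60, and at 18.4 kb upstream C/EBPα scored 61.62 and 43.68 and IRF8 72.94 and 63.54. Each of these 3 regions was within 2-fold in both factors, as were most pairs over all genes.

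Weaker Tnfaip3 regions accounted for the remaining 2-fold differences. C/EBPα scored 8.70 and 21.24 at 70.2 kb downstream (log2 ratio 1.29), 13.51 and 28.23 at 47.1 kb upstream (1.06), and 10.77 and 4.80 at 15.4 kb downstream (-1.17). The last of these also held the sole JUNB peak of the locus, with 4.71 in control. The control-only IRF8 peaks of 9.53 at 80.4 kb downstream and 8.19 at 28.5 kb upstream ranked next among IRF8 after the one at Nfkbiz.

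Nfkbia (chr12:55489410-55492647, minus strand), the gene of IκBα, had no promoter peak in any list. Its strongest region was annotated to the transcript end and lay just past the 3′ end of the gene (chr12:55488493-55489230, 3.81 kb from the TSS), with C/EBPα at 77.45 and 94.43, IRF8 at 25.01 and 25.63, and JUNB at 6.83 after IL-4 alone. This was the sole IL-4-only JUNB peak at the 10 genes. A second JUNB peak, 25.6 kb downstream, was control-only with a score of 10.85, beside C/EBPα scores of 6.62 and 4.70 and no IRF8 peak. No C/EBPα or IRF8 pair at Nfkbia reached 2-fold, with log2 ratios from -0.49 to 0.80 over 9 pairs. Over all pairs, 7.72% of C/EBPα and 11.3% of IRF8 were at least 2-fold higher, and 6.56% and 7.96% at least 2-fold lower. At these shares 9 pairs are too few to set the locus apart.

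**Figure D4:**
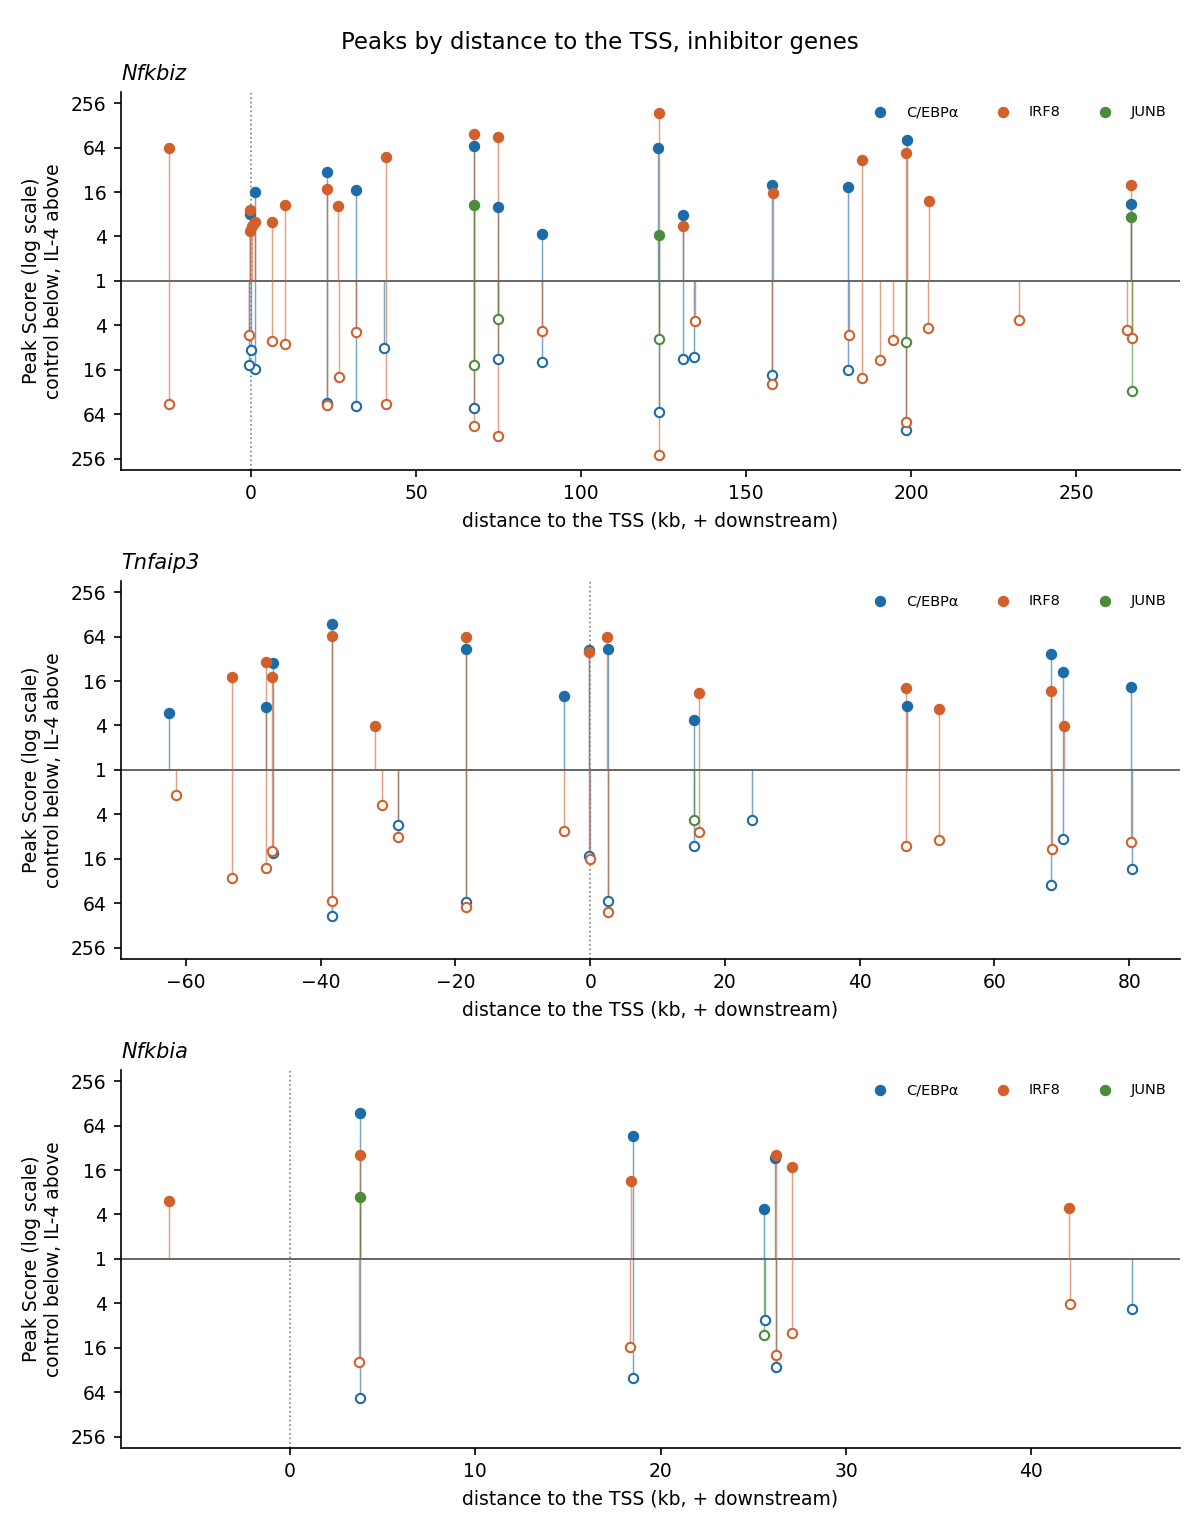
Peaks at Nfkbiz, Tnfaip3 and Nfkbia by distance to the TSS (x axis, kb, positive values downstream), with Peak Score on a log scale upwards for the IL-4 list (filled points) and downwards for the control list (open points), coloured by factor. JUNB is at 5 Nfkbiz regions, from 267 kb (30.99 and 7.31) to 67.5 kb (13.61 and 10.56), and the Tnfaip3 promoter stems are longer upwards (41.66 and 39.53) than downwards (14.53 and 16.00).

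At Nfkbie (chr17:45555703-45563169) the promoter region (chr17:45555318-45555639, 190 bp upstream) had a C/EBPα peak of 9.62 in control alone and IRF8 scores of 8.67 and 8.31. In its intron 1, IRF8 scored 5.14 and 4.06, and C/EBPα had a peak of 4.92 after IL-4 alone. At Bcl3 (chr7:19808462-19822770) the strongest region was 8.33 kb upstream (chr7:19830837-19831302), where C/EBPα scored 68.48 and 61.18 and IRF8 8.04 and 5.74. The Bcl3 promoter, 873 bp upstream, had C/EBPα at 13.16 and 10.44 and IRF8 at 5.24 and 9.32. The same merged region held further control peaks of C/EBPα (7.72) and IRF8 (7.25) that were annotated as intergenic. Of these, the IRF8 peak was control-only. None of the 5 Bcl3 pairs was 2-fold apart, which at the shares over all pairs given for Nfkbia does not set the locus apart. Within 50000 bp of Nfkbie, 25 of 32 peaks were named to other genes.

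Across the promoters of the 10 genes, C/EBPα had 4 of 8 control peaks with no IL-4 counterpart (50%, 21.5% to 78.5%), against a background of 22.4% over all C/EBPα promoter peaks. They were at Nfkbiz (13.97), Nfkbie (9.62), Nfkb2 (4.53) and Rela (3.44). None of the 4 C/EBPα promoter peaks in the IL-4 list was IL-4-only (background 27.8%). For IRF8, 1 of 7 control promoter peaks was control-only (14.3%, 2.57% to 51.3%, background 24.3%) and 2 of 8 were IL-4-only (25%, 7.15% to 59.1%, background 48.0%). In peaks with a score of at least 5 the promoter shares of C/EBPα were 12.2% in control and 8.51% after IL-4, a smaller difference than the 14.8% and 7.14% given above.

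JUNB lay at 9 of the 105 regions: 5 at Nfkbiz, 2 at Nfkbia, 1 at Rel and 1 at Tnfaip3. None of them was JUNB alone. Of the 8 regions with JUNB in control, 5 also had C/EBPα and IRF8 in the control lists, and all 4 with JUNB after IL-4 had both after IL-4. Over all regions, 2550 of 3915 with JUNB in control and 1586 of 2312 after IL-4 had all 3 factors. JUNB was alone at 413 of the 3915 and at 261 of the 2312. The member regions with JUNB are too few to be set apart from these. The AP-1 letters were found in 4 of the 9 windows (44.4%, 18.9% to 73.3%), compared with 39.3% of all 4804 windows with JUNB.

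C/EBPα and IRF8 together occupied 34 of 93 member regions in control (36.6%, 27.5% to 46.7%) and 38 of 88 after IL-4 (43.2%, 33.3% to 53.6%), against 29.9% and 28.7% of all regions. Regions share genes, and this comparison was not tested. In control, 56 regions had 1 factor (60.2%), 32 had 2 (34.4%) and 5 had 3 (5.38%), against 68.1%, 26.5% and 5.38% of all regions. After IL-4 the numbers were 50 (56.8%), 34 (38.6%) and 4 (4.55%), against 70.4%, 26.6% and 3.08%. Both factors were present in both conditions at 24 of the 105 regions (22.9%, against 17.8% of all). The median of a region's highest score was 5.4 for the 25 regions in 1 list, 15.045 for the 34 in 2 lists, 13.97 for the 21 in 3 lists and 29.98 for the 18 in 4 lists, and a maximum over more lists is higher by construction. A region found in 1 list was less frequent among the member regions (23.8%) than among all (35.4%), a comparison that was not tested.

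In the central 200 bp of the member regions, the C/EBP letters were found in 24 of 105 (22.9%, 15.9% to 31.8%), compared with 18.4% of 60845 windows in all. The IRF letters were in 19 (18.1%, 11.9% to 26.5%, all 19.6%), the AP-1 letters in 14 (13.3%, 8.11% to 21.1%, all 10.9%), the κB letters in 14 (13.3%, 8.11% to 21.1%, all 8.26%) and the STAT6 letters in 8 (7.62%, 3.91% to 14.3%, all 7.63%). Each share of all regions lay inside the interval of the member share. Sorted by factor, the C/EBP letters were in 32.8% of the 64 member regions with C/EBPα (all, 30.6%) and the IRF letters in 20.0% of the 90 with IRF8 (all, 22.6%).

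**Figure D5:**
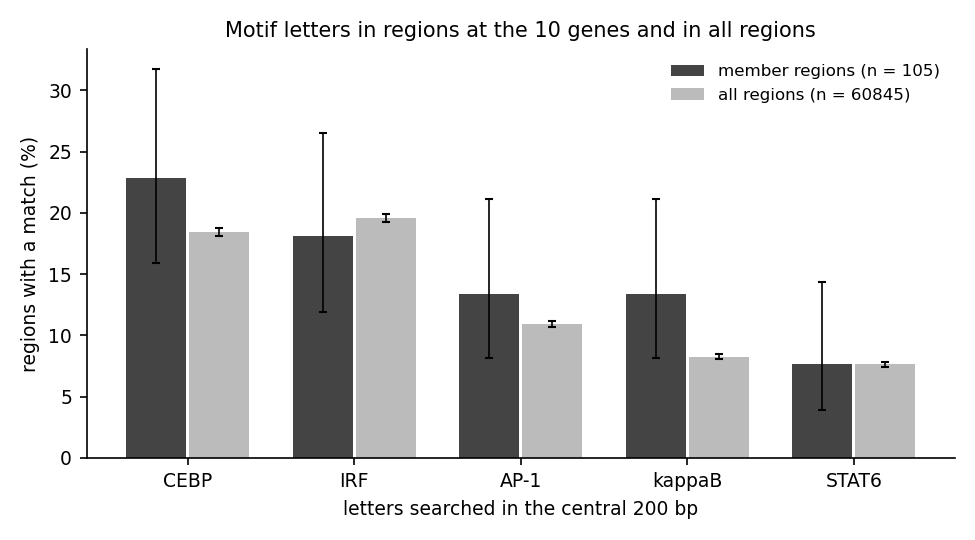
Share of regions (y axis, percent) whose central 200 bp hold the C/EBP, IRF, AP-1, κB or STAT6 letters, for the 105 member regions (dark bars) and for 60845 regions in all (light bars), with Wilson 95% intervals as error bars. Every light bar lies within the interval of its dark neighbour, the nearest to the edge being κB (8.26% against 8.11% to 21.1%).

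For context, 40 other genes of the pathway were counted (IκB relatives, the kinase complex, TRAF and IRAK adaptors, and ubiquitin and other negative regulators). Of these, 37 had a peak, with 545 peaks in all, and Irak1, Rnf31 and Sharpin had none. C/EBPα had 97 and 99 peaks at them, IRF8 155 and 164, and JUNB 19 and 11, in control and IL-4. Control-only shares were 20.6%, 20.0% and 68.4%, against 21.4%, 21.4% and 64.2% of all peaks of these factors. IL-4-only shares were 23.2%, 25.6% and 45.5%, against 22.0%, 30.4% and 39.2%. These comparisons were not tested. The genes with the most peaks were Tab2 (48), N4bp1 (45), Ikbke (44), Map3k7 (38) and Zc3h12a (35), all below Nfkbiz and Tnfaip3. Tab2, N4bp1 and Ikbke were above Nfkb1 (43), and each of the named genes was above Rel (32) and the remaining members.

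The label of the cells was checked against markers. All 5 macrophage genes looked up had peaks: Spi1 11, Itgam 19, Cd68 7, Adgre1 28 and Lyz2 13 over the 6 lists. Of the lymphoid genes reported here, Cd3e had none and Cd4, Cd79a and Ncr1 had 3, 1 and 3. Peaks show binding and not expression, so this check is weak.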

How the data were processed

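The deposited files are peak lists of C/EBPα, IRF8 and JUNB ChIP-seq in control and IL-4-treated BMDMs, with 1 list for each of the 6 samples. To make them, the authors mapped reads to mm10 (BWA), called peaks in each sample (MACS2, with a limit on the q-value) and dropped blacklisted artifacts, as their methods describe. The submitters' processing notes name BWA 0.7.10, SAMtools 0.1.19, HOMER 4.2 and MACS2 2.0.10. The control library of the peak calling and the read numbers are not given in the sources used here, so depth is unknown. The deposited Peak Score (a score whose unit is not stated), the annotation, the distance to the TSS and the nearest gene were used as the authors gave them.

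Control and IL-4 peaks of a factor that overlapped by at least 1 bp were called shared, and shared peaks were paired one-to-one by largest overlap for the ratio of scores. Peaks of all lists were merged into regions, with the highest score per list. A 2-fold ratio was the limit for a difference. Shares carry Wilson 95% intervals. No test was run, since each group has 1 sample. Sequence windows were read from GRCm38 with pysam 0.24.0. No peak ended past its chromosome, and 11 regions off the assembled chromosomes were left out of the motif search. Overlap and pairing were tested on simulated data (6 of 6 checks passed).

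The 10 genes, the 40 pathway genes and the markers were chosen with earlier results of these data known. One of the markers is not reported here. The text names all 10 genes, the highest-scoring region of each, and per factor the 3 highest control-only and IL-4-only peaks and the 3 largest and smallest score ratios, beside items said to be chosen later. Alternatives changed the overlap, the minimum score, the list length, the distance to the TSS, the gene window, the score scaling, the fold, the promoter definition, the peak width and the motif window. The software was Python 3.11.15 with scipy 1.17.1, pandas 2.3.3, numpy 2.4.6 and, for plots, matplotlib 3.10.9.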

Additional observations from a re-analysis of the deposited data

Results flagged for a closer look

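The number of member peaks moved in opposite directions between factors after IL-4: by 2 for C/EBPα, by -6 for IRF8 and by -4 for JUNB. C/EBPα therefore stood 8 peaks apart from IRF8 and 6 apart from JUNB. The difference was not tested, since each factor had 1 sample per condition. In peaks with a score of at least 5 the member peaks of C/EBPα numbered 49 and 47 and those of IRF8 62 and 63, so the directions turned. JUNB had 6 and 3 under that limit, but 4 in either list when its lists were cut to equal length.

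The median log2 score ratio of paired member peaks also had opposite signs. It was 0.01 for C/EBPα and 0.09 for IRF8, against -0.53 for JUNB, a gap of 0.54 and 0.62. This difference was not tested either. The C/EBPα and IRF8 medians had intervals that included 0 (-0.37 to 0.19 and -0.09 to 0.39). These intervals treat peaks as independent and are not a test of IL-4. With scores divided by the list median, the IRF8 median was 0.20 (interval 0.01 to 0.49). That scaling shifts every IRF8 pair by the same amount, so the median over all IRF8 pairs, 0.08 before scaling, moves with it. In the same scaling the JUNB median was -0.18, and the JUNB median rests on 3 pairs at Nfkbiz. The gap is not particular to the member peaks. When every pair in the lists was taken, the JUNB median was -0.54, that of C/EBPα -0.004 and that of IRF8 0.08. The JUNB list was also shorter after IL-4 as a whole, with 2325 peaks against 3940.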

How the results depend on the processing

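Of 107 values computed under an alternative for 30 results, 99 stayed inside the 95% interval of the reported value and 8 did not. For JUNB, taking peaks in a gene or within 50000 bp of it left 4 control and 2 IL-4 peaks, with 0% of the control peaks shared and 100% IL-4-only. Dividing scores by the list median moved the JUNB median log2 ratio to -0.18, and within 100000 bp of the TSS 0% of 1 JUNB pair was 2-fold lower. A window of 100 bp, which holds fewer bases, gave motif shares of 4.76% for AP-1, 12.4% for C/EBP, 7.62% for κB and 3.81% for STAT6. The shares of all regions at 100 bp were 6.62%, 12.4%, 4.10% and 4.03%, each inside the interval of the member share at 100 bp. For AP-1 the member share was above that of all regions at 200 bp and below it at 100 bp. The C/EBPα median log2 ratio, inside its interval under every alternative, changed sign within 100000 bp of the TSS (-0.04) and with the gene window (-0.10).

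No paired analysis was possible because each factor and condition had 1 sample. The lists give no read numbers, so depth could not be corrected for, and a peak missing from a list is not evidence that the factor was absent. The nearest-gene name does not link a region to the gene it acts on.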
